A study of Mus musculus with 2 samples.

Results

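Acp5 Ocstamp-high macrophages are the islet macrophages in which transcripts of Acp5, Ocstamp, Fam20c and Gpr84 took the largest share of all transcripts. They numbered 287 of 2863 macrophages, of 3092 barcodes that passed the cell filters and of 3418 deposited barcodes. A macrophage was a kept barcode (at least 500 genes, at least 1000 unique molecular identifiers or UMIs, and at most 10% mitochondrial UMIs) whose UMIs of the complement genes C1qa, C1qb and C1qc summed to 5 or more. A member was a macrophage whose summed share of the 4 genes was at or above the 90th percentile of its own library. The rule therefore used the measured values of these 4 genes and fixed the number of members at 1 in 10 macrophages of each library: 162 against 1458 remaining macrophages in the 12 weeks library, and 125 against 1118 in the 1 week library.

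The study measured CD45-positive, Epcam-negative, DAPI-negative live immune cells sorted from islets of C57BL/6J male mice on chow, with droplet single-cell sequencing of 3′ transcript ends. Each of the 2 libraries came from islets pooled over several mice, 1 pool per time label (12 weeks or 1 week). No label states what is counted in weeks, and the sample titles number the libraries as replicates 1 and 2 although their time labels differ. No genetic change, drug or other diet is part of either library.

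Acp5 encodes tartrate-resistant acid phosphatase, a lysosomal and secreted enzyme used as the classic stain for osteoclasts, the bone-resorbing cells of the monocyte and macrophage lineage. Ocstamp encodes a membrane protein needed for fusion of osteoclast precursors, Fam20c a Golgi kinase that phosphorylates secreted proteins, and Gpr84 a receptor for medium-chain fatty acids that is induced in activated myeloid cells. Osteoclasts form when the cytokines M-CSF and RANKL act on precursors through Csf1r and Tnfrsf11a (RANK) and switch on the transcription factor Nfatc1. Mature osteoclasts then make the collagenase cathepsin K (Ctsk), the gelatinase Mmp9, the proton pump subunit Atp6v0d2, carbonic anhydrase 2 (Car2), the calcitonin receptor (Calcr), integrin beta 3 (Itgb3) and the receptor Oscar.

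The data went against an osteoclast name for these cells. The members' 1225408 UMIs in the 12 weeks library held 1 UMI of Car2 and none of Ctsk, Mmp9, Atp6v0d2, Calcr, Itgb3 or Oscar. Their 1324811 UMIs in the 1 week library held 3 of Car2, 1 of Ctsk and 1 of Oscar, and none of the other 4. Taken as a floor of 3 counts, a count of 0 allows up to 2.45 CPM (counts per 1000000 UMIs) in the 12 weeks members and up to 2.26 CPM in the 1 week members, and the exact 95% Poisson intervals for 0 end at 3.01 and 2.78 CPM. In the remaining macrophages each of these 7 genes stood at 1.17 CPM or lower in both libraries. The cells are therefore described by the genes that chose them. All 10 macrophage markers were detected in the members of both libraries, and their summed level was 43491 CPM in members against 42095 CPM in remaining macrophages at 12 weeks, and 42080 against 39475 CPM at 1 week.

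**Figure D1:**
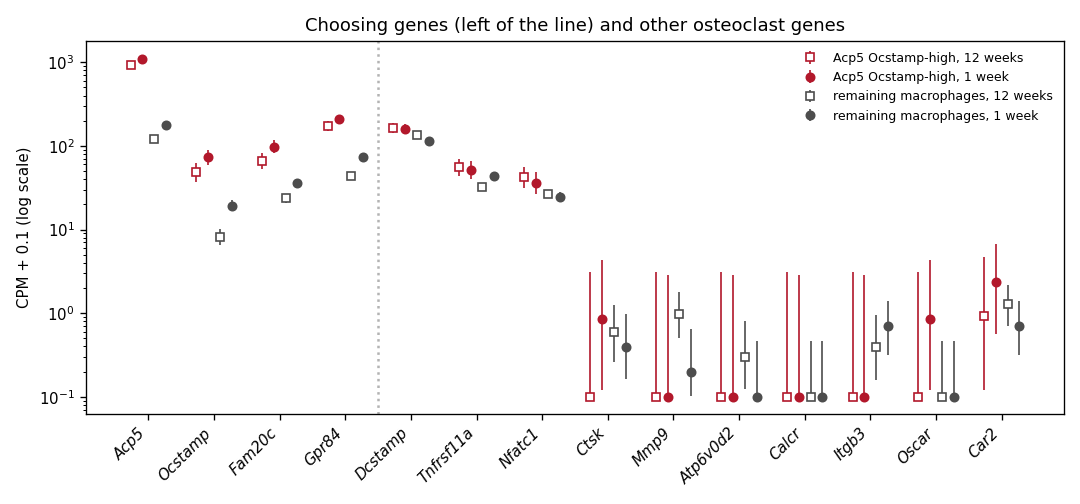
CPM plus 0.1 (log axis) of the 4 choosing genes and 10 other osteoclast genes, in Acp5 Ocstamp-high macrophages (red) and remaining macrophages (grey), for the 12 weeks library (open squares) and the 1 week library (filled circles). Bars are exact 95% Poisson intervals for counting error only. Dcstamp, Tnfrsf11a and Nfatc1 were present in both classes, while Ctsk to Car2 stood at or near 0 in both.

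The values of the 4 choosing genes are given as a description, since they made the choice. Acp5 had 934 CPM in members and 119.8 CPM in remaining macrophages of the 12 weeks library, and 1081 and 179 CPM in the 1 week library. It was found in 95.1% of 12 weeks members against 41.7% of remaining macrophages, and in 96.0% against 47.0% at 1 week. Kept barcodes outside the macrophage rule with at least 2 UMIs of B or T cell markers, taken as a gauge of free RNA, carried an Acp5 UMI in 23.4% of 64 cases at 12 weeks and 15.8% of 38 at 1 week, at median depths of 3366 and 4655 UMIs. Acp5 made up 76.4% of the members' UMIs of the 4 genes at 12 weeks and 74.0% at 1 week, so the choice rested mostly on it.

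Ocstamp had 49.0 CPM in members and 8.03 CPM in remaining macrophages at 12 weeks, and 73.2 and 19.2 CPM at 1 week. Fam20c had 66.1 and 23.5 CPM at 12 weeks, members first, and 98.1 and 35.6 CPM at 1 week. Gpr84 had 174 and 43.6 CPM at 12 weeks, in the same order, and 209 and 74.0 CPM at 1 week. An Ocstamp UMI was seen in 22.8% of members at 12 weeks and 33.6% at 1 week, a Fam20c UMI in 31.5% and 48.8%, and a Gpr84 UMI in 53.1% and 69.6%. A member held a median of 8 UMIs of the 4 genes at 12 weeks (2 to 29) and 13 at 1 week (2 to 60), against a median of 1 in the remaining macrophages of both libraries. Of the members, 69.8% at 12 weeks and 83.2% at 1 week carried at least 2 of the 4 genes, against 17.1% and 31.0% of the remaining macrophages, and 7 and 17 members carried all 4.

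The threshold falls within a continuous range and not between separate populations. It stood at a share of 0.0783% of UMIs at 12 weeks, where the 5 members just inside had 0.0785% to 0.0794% and the 5 macrophages just outside had 0.0772% to 0.0783%. It stood at 0.0974% at 1 week, where the 5 just inside had 0.0974% to 0.0988% and the 5 just outside 0.0966% to 0.0974%. Within 10% of the threshold lay 32 members and 27 other macrophages at 12 weeks, and 21 and 34 at 1 week. Members were somewhat deeper than the rest, with a median of 7352 against 6848 UMIs at 12 weeks and 8720 against 7289 UMIs at 1 week. Their median mitochondrial share was 3.17% against 3.04% at 12 weeks and 3.56% against 3.36% at 1 week. Of the kept barcodes that were not macrophages, 0 of 132 at 12 weeks and 3 of 97 at 1 week reached the threshold. The libraries had 12448628 UMIs (12 weeks) and 12858754 UMIs (1 week) in all and shared 3 barcode sequences.

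Acp5 lies on mouse chromosome 9 (GRCm38, chr9:22126727-22135711, minus strand). RefSeq lists 3 transcription starts for it in GRCm38.p6. Acp5 carried most of the choice. Of its 3 windows, the 250 bases before the start nearest the coding end (chr9:22130599-22130848, minus strand) are shown because they were the only ones with a match, and the other 2 had none. Capitals mark the core TGGAAA that NFAT factors recognise, read here on the other strand 117 bases before the start.
Acp5: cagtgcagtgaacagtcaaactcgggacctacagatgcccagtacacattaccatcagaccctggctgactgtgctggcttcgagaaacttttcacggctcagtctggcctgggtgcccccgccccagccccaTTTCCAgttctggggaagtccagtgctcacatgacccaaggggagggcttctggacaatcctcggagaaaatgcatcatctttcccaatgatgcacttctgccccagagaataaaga
This core was found on either strand in 18.6% of all 32851 such promoter windows, so its presence is a description of the letters only.

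Each choosing gene was also measured free of its own part in the choice, in macrophages chosen again by the other 3 genes. Ocstamp had 32.8 CPM in macrophages chosen without it and 9.98 CPM in the rest at 12 weeks, and 53.9 and 21.9 CPM at 1 week. It was higher by a log2 fold change of 1.47 (SE 0.20, adjusted p = 0.013 by edgeR), in a comparison where 0.551% of 9805 genes were called higher. Acp5 had 364 and 189 CPM at 12 weeks, chosen cells first, and 476 and 263 CPM at 1 week. Its log2 fold change was 0.92 (SE 0.10, adjusted p = 6.7e-17 by edgeR), where 2.77% of 9873 genes were called higher. Each choice was a separate fit with its own estimate of spread, so p-values and called shares are not directly comparable between these genes.

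Gpr84 rose as well, with 104 CPM in chosen cells against 51.9 CPM in the rest at 12 weeks and 146 against 82.1 CPM at 1 week. Its log2 fold change was 0.91 (SE 0.15, adjusted p = 0.0088 by edgeR), where 0.602% of 9795 genes were called higher. Fam20c was not called, with a log2 fold change of 0.63 (SE 0.18, adjusted p = 0.146 by edgeR) beside a background of 0.816% of 9799 genes. When cells were chosen after every macrophage had been thinned to 3000 UMIs, Fam20c had a log2 fold change of 1.01 (edgeR, adjusted p = 0.0011). No choosing gene was called without the library as a block, with edgeR adjusted p between 0.590 and 0.771. Thus Acp5, Ocstamp and Gpr84 tended to be found in the same macrophages in both libraries.

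Dividing every cell's UMIs at random into 2 parts showed how much of the choice repeats within a cell. Macrophages chosen on the first part had 942 CPM of the 4 genes together in the unused part at 12 weeks, against 223 CPM in the rest. At 1 week the values were 1281 CPM in the chosen cells and 342 CPM in the rest. The first part itself gave 1345 CPM at 12 weeks and 1538 CPM at 1 week in the chosen cells, so the level fell back but stayed above that of the rest. Of the cells chosen on the first part, 45.1% at 12 weeks and 50.4% at 1 week were chosen again on the other part.

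Beyond the choosing genes, Acp5 Ocstamp-high macrophages had more transcripts of the chemokines Ccl5, Ccl22 and Cxcl3 and the cytokine genes Il1rn, Il10, Il1a and Tnf. They had fewer transcripts of 8 of 14 heat shock chaperones and 8 of 18 immediate early genes. The test summed UMIs over members and over remaining macrophages within each library and kept the library as a block. Of 9788 genes tested, 37 were called higher (0.378%) and 39 lower (0.398%) at an adjusted p under 0.05. Every one of them had the same direction in each library alone, which a call made on both libraries largely requires. At equal depth, with every macrophage thinned to 3000 UMIs, 105 of 7315 genes were called higher (1.44%) and 99 lower (1.35%), among them 34 and 30 of the genes called at full depth. The test had 1 residual degree of freedom per gene. Its p-values rest on a spread between 2 pools, which also differ in time label, that edgeR shares across genes. That spread was estimated anew in each fit, so p-values and counts of called genes are not directly comparable between fits. Without the library as a block no gene was called, and 317 and 379 genes had an unadjusted p under 0.05.

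**Figure D2:**
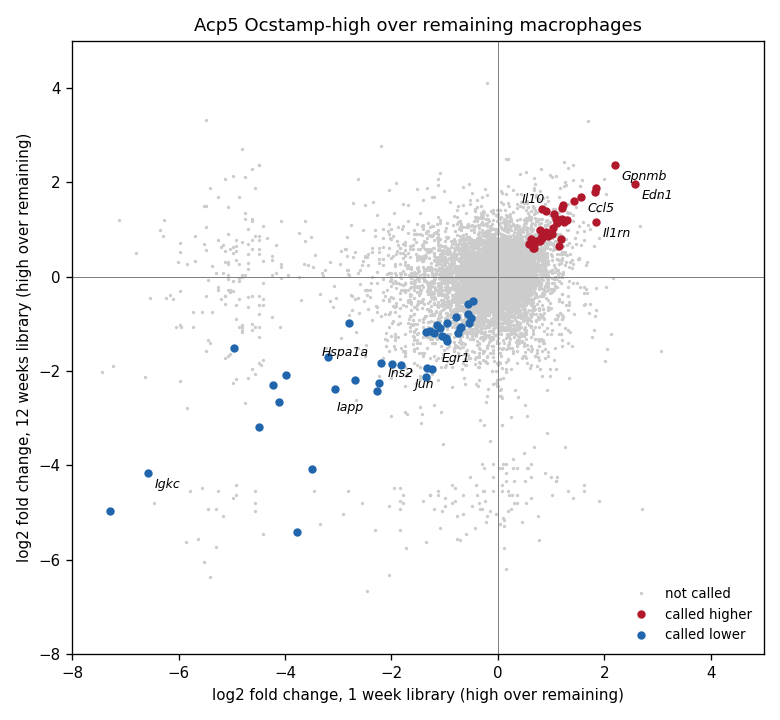
Log2 fold change of each of 9788 genes in Acp5 Ocstamp-high over remaining macrophages, in the 1 week library (horizontal) and the 12 weeks library (vertical). The 37 genes called higher (red) lie in the upper right and the 39 called lower (blue) in the lower left, with Igkc, hormone and secretory granule genes among the lowest of those called. The call used both libraries, so this placement follows largely from it.

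Of 18 chemokine genes tested, Ccl5, Ccl22 and Cxcl3 were called higher and none lower, beside 0.378% and 0.398% of all genes tested. Ccl5, which attracts T cells and monocytes, had 1697 CPM in members and 515 CPM in remaining macrophages at 12 weeks, and 1507 and 519.7 CPM at 1 week. Its log2 fold change was 1.63 (SE 0.10, adjusted p = 0.00019 by edgeR). The gene was found in 46.9% of members against 27.8% of remaining macrophages at 12 weeks and 55.2% against 30.4% at 1 week. At 12 weeks the 5 members with the most Ccl5 held 40.7% of the members' UMIs. The summed level of T cell markers was 4.90 CPM in members against 29.4 CPM in remaining macrophages at 12 weeks and 3.77 against 19.2 CPM at 1 week, with Cd3e and Cd3g at 0 in members of both. The 9 NK and innate lymphoid markers summed to 330.5 CPM in members against 303 CPM in remaining macrophages at 12 weeks and 334 against 244 CPM at 1 week. In members these UMIs were of Rora and Il7r, and at 12 weeks also Klrd1, while Ncr1, Klrb1c, Gzma, Prf1, Eomes and Gata3 stood at 0 in both libraries. Their part in the Ccl5 level was not tested. Ccl22, a ligand of Ccr4 on T cells, had 26.1 and 8.91 CPM at 12 weeks, members first, and 39.3 and 17.1 CPM at 1 week. Cxcl3, a neutrophil attractant, had 104 and 54.3 CPM at 12 weeks, in the same order, and 159 and 80.7 CPM at 1 week. The list's median log2 fold change was 0.34, beside -0.01 over all genes tested. At equal depth 7 of 17 chemokine genes were called higher and 2 lower, the monocyte attractant Ccl12 (log2 fold change -1.77) and the neutrophil attractant Cxcl2 (-0.38). Over all genes tested at equal depth, 1.44% were called higher and 1.35% lower. Cxcl3 was not called without mixed droplets (barcodes above the 95th percentile of UMIs or with at least 2 UMIs of B, T or dendritic cell markers), where its log2 fold change was 0.59 (edgeR, adjusted p = 0.180). Ccl22 was not called at the 95th percentile (edgeR, adjusted p = 0.077) or with stricter cell filters (0.143).

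Of 15 cytokine and nuclear factor (NF) kappa B response genes tested, Il1rn, Il10, Il1a and Tnf were called higher (26.7%) and none lower. Over all genes tested 0.378% were called higher. The median log2 fold change of the list was 0.32. Il1rn, the secreted antagonist of the interleukin-1 receptor, had 369.7 CPM in members and 162 CPM in remaining macrophages at 12 weeks, and 399 and 114 CPM at 1 week. Its log2 fold change was 1.50 (SE 0.17, adjusted p = 0.0083 by edgeR), larger at 1 week (1.84) than at 12 weeks (1.15), a difference that was not tested. Il10, the main anti-inflammatory cytokine of macrophages, had 132 and 47.4 CPM at 12 weeks, members first, and 186 and 83.0 CPM at 1 week, with a log2 fold change of 1.32 (SE 0.14, adjusted p = 0.0069 by edgeR). It was detected in 21.0% of members against 10.9% of remaining macrophages at 12 weeks, and in 35.2% against 19.3% at 1 week. The 5 members with the most Il10 held 42.6% of the members' UMIs at 12 weeks and 39.7% at 1 week.

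Il1a, an alarmin released by damaged cells, had 156 CPM in members and 97.7 CPM in remaining macrophages at 12 weeks, and 379 and 175 CPM at 1 week (log2 fold change 0.91, SE 0.15; edgeR, adjusted p = 0.044). Tnf, the tumour necrosis factor gene, had 478 and 289 CPM at 12 weeks, members first, and 673 and 457 CPM at 1 week (log2 fold change 0.64, SE 0.11; edgeR, adjusted p = 0.044). Il1a lost its call with DESeq2 size factors (edgeR, adjusted p = 0.064) and with stricter cell filters (0.090). Tnf lost it with the same settings (0.061 and 0.107) and without mixed droplets, where its log2 fold change was 0.38 (edgeR, adjusted p = 0.153). At equal depth 5 of 14 genes of the list were called higher, and Osm, the cytokine oncostatin M, was called lower (log2 fold change -1.31; edgeR, adjusted p = 0.011). The shares over all genes at equal depth were 1.44% higher and 1.35% lower.

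Tnip3, Cd40 and Clec4e were among the other genes called higher. Tnip3, which binds the A20 protein and dampens NF-kappa B signalling, had 611 CPM in members and 238 CPM in remaining macrophages at 12 weeks, and 531 and 259.6 CPM at 1 week (log2 fold change 1.20, SE 0.12; edgeR, adjusted p = 0.0065). Cd40, the receptor through which T cells activate macrophages, had 249.7 and 112 CPM at 12 weeks, members first, and 278 and 132 CPM at 1 week. At full depth Cd40 was the only gene called of 9 costimulatory and checkpoint ligands tested, with a log2 fold change of 1.12 (SE 0.12, adjusted p = 0.0071 by edgeR). Clec4e (Mincle), a receptor for mycobacterial glycolipids and dying cells, had 212 and 89.8 CPM at 12 weeks, members first, and 237 and 107 CPM at 1 week.

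Nrp2, a co-receptor for semaphorins and vascular growth factors, had 111 CPM in members and 46.2 CPM in remaining macrophages at 12 weeks, and 110.2 and 48.5 CPM at 1 week. Its log2 fold change of 1.22 (SE 0.14, adjusted p = 0.0083 by edgeR) was close in the 2 libraries (1.23 at 12 weeks and 1.21 at 1 week). Anxa1, a mediator that restrains inflammation, had 63.7 and 28.0 CPM at 12 weeks, members first, and 36.2 and 15.7 CPM at 1 week. Dnase1l3, a secreted nuclease that degrades DNA of dying cells, had 60.4 and 22.3 CPM at 12 weeks, members first, and 26.4 and 14.4 CPM at 1 week. Fam177a had 68.5 and 21.9 CPM at 12 weeks, in the same order, and 28.7 and 10.8 CPM at 1 week. Dnase1l3 had a log2 fold change of 1.20, which was 0.33 at the 95th percentile (edgeR, adjusted p = 0.818), and it also lost its call when cells were chosen at equal depth (0.198), with stricter cell filters (0.145) and with DESeq2 size factors (0.064). Anxa1 lost its call when cells were chosen at equal depth (edgeR, adjusted p = 0.187) and with stricter cell filters (0.053).

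Several of the largest fold changes belonged to genes at low levels in few cells. Edn1, the vasoconstrictor peptide endothelin-1, had 16.3 CPM in members and 4.01 CPM in remaining macrophages at 12 weeks, and 24.9 and 4.17 CPM at 1 week. It had the highest log2 fold change among the named genes, 2.32 ± 0.32 (SE; edgeR, adjusted p = 0.019), carried by 8 members at 12 weeks and 10 at 1 week. At the 95th percentile it was 1.56 and not called (edgeR, adjusted p = 0.130), nor was it with stricter cell filters (0.052). Atr, a DNA damage kinase, had 40.0 and 11.2 CPM at 12 weeks, members first, and 27.2 and 7.74 CPM at 1 week, but 1 member held 38 of the 49 Atr UMIs at 12 weeks. When cells were chosen at equal depth the log2 fold change of Atr was 0.44 (edgeR, adjusted p = 0.852) and not 1.82. Gpnmb, a glycoprotein of lipid-associated macrophages that is also made by osteoclasts, had 8.16 and 1.47 CPM at 12 weeks, members first, and 15.9 and 3.47 CPM at 1 week, in 4 members of each library, and lost its call with DESeq2 size factors (edgeR, adjusted p = 0.064) and stricter cell filters (0.075). The interferon-inducible genes Ifi205 (16.3 and 4.31 CPM at 12 weeks, members first, and 22.6 and 6.35 CPM at 1 week) and Gbp5 (39.2 and 16.6 CPM, and 23.4 and 9.72 CPM) were called at full depth. Neither was called at equal depth, where edgeR gave adjusted p = 0.249 for Ifi205 and adjusted p = 0.069 for Gbp5.

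Promoter windows of genes that rose are shown to give the letters behind the NF-kappa B motif count. RefSeq windows in GRCm38.p6 were searched on both strands, in the 250 bases before each start, for GGNNNTTCC, which covers much of the NF-kappa B consensus. They were available for 29 of the 37 genes called higher, with 31 starts. The motif was in 12 of these 31 windows (38.7%), in 5 of 36 windows of genes called lower (13.9%), and in 15.7% of all 32851 windows. Examples follow, with the match in capitals: Tnip3 (chr6:65590148-65590397, plus strand, match starting 53 bases before the start), Tnfaip2 (chr12:111442411-111442660, plus strand, 87 bases) and the third listed start of Il1rn (chr2:24345121-24345370, plus strand, 50 bases). The other 2 listed starts of Il1rn had no match in their windows. Tnfaip2 was chosen for display after its values were seen.
Tnip3: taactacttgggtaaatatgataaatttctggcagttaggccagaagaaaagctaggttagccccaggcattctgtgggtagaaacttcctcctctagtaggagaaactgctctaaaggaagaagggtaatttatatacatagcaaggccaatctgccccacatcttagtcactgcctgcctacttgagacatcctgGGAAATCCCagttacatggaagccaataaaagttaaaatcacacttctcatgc
Tnfaip2: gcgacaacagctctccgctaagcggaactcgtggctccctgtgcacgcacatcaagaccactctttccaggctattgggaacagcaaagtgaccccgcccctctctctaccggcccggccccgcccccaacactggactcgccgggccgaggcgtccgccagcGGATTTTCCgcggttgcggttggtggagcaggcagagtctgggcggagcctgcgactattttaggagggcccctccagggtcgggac
Il1rn: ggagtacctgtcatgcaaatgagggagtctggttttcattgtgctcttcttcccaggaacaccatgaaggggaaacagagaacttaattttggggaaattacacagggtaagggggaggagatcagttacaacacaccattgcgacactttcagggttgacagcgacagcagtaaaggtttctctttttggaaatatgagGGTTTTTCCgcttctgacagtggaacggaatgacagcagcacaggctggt
The AP-1 motif TGANTCA was in 6 of the 31 windows (19.4%) and in 6.75% of all windows, and the core GAGGAA of the myeloid factor PU.1 in 12 of 31 (38.7%) and in 23.3% of all. The letters TTCC at the end of the NF-kappa B motif can overlap the reverse of the PU.1 core, so these counts are not independent. Of the other motifs searched, the NFAT core was in 25.8% of the 31 windows and 18.6% of all windows. The antioxidant response element was in 16.1% and 10.2%, and in 22.2% of windows of genes called lower. The heat shock element was in 9.68% and 7.17%, the E-box CACGTG in 6.45% and 6.02%, and the E-box CATGTG in 9.68% and 12.3%. No test was made of these shares, and a match does not show that a factor binds.

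No osteoclast formation gene was called higher at full depth, though more of them than of all genes had an unadjusted p under 0.05 on the higher side: 4 of 8 fusion genes and 9 of 19 signalling genes, against 491 of 9788 genes tested. Dcstamp, a fusion protein related to Ocstamp, had 164 CPM in members and 134 CPM in remaining macrophages at 12 weeks, and 160.0 and 114 CPM at 1 week (log2 fold change 0.39, SE 0.13; edgeR, adjusted p = 0.325). Tnfrsf11a had 55.5 and 32.5 CPM at 12 weeks, members first, and 52.1 and 43.3 CPM at 1 week (edgeR, adjusted p = 0.333). Nfatc1 had 42.4 and 26.5 CPM at 12 weeks, in the same order, and 36.2 and 24.5 CPM at 1 week (log2 fold change 0.62, SE 0.18; edgeR, adjusted p = 0.218). All 3 were higher in members of both libraries without passing the test.

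Of 8 fusion genes tested, none was called, with a median log2 fold change of 0.31, and at equal depth Cd47, Cd9 and Cd44 were called higher. Of 8 genes of acid and matrix degradation tested, none was called, and of 17 subunits of the V-ATPase proton pump, none was called, with a median of 0.01. Of 19 genes of RANK and co-stimulatory signalling, 16 had a positive log2 fold change, beside 4758 of all 9788 genes tested. Of these 19 genes 0 were called higher and Fos was called lower, with a median of 0.21. At equal depth Jdp2, an AP-1 family member, was called higher (log2 fold change 0.54; edgeR, adjusted p = 0.028). Csf1r had 498 CPM in members and 475 CPM in remaining macrophages at 12 weeks, and 581 and 521 CPM at 1 week (edgeR, adjusted p = 0.777). Trem2, a lipid-sensing receptor, had 206 and 188 CPM at 12 weeks, members first, and 252 and 207 CPM at 1 week, and was not called (edgeR, adjusted p = 0.636).

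**Figure D3:**
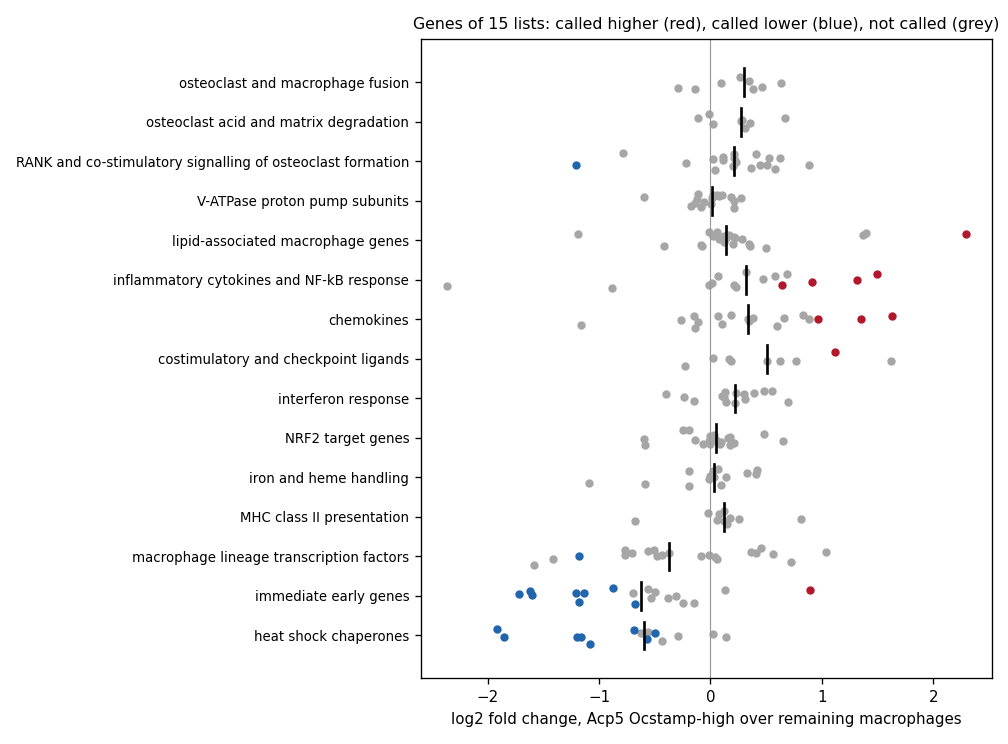
Log2 fold changes in Acp5 Ocstamp-high over remaining macrophages for the tested genes of 15 lists, 1 point per gene, with the list's median as a black bar and points spread vertically for sight only. Called genes gather in the chemokine and cytokine lists on the higher side (red) and in the heat shock and immediate early lists on the lower side (blue), while fusion, degradation and V-ATPase genes hold none.

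Heat shock chaperones were lower in Acp5 Ocstamp-high macrophages. Hspa1a, the inducible Hsp70, had 828 CPM in members and 2920.0 CPM in remaining macrophages at 12 weeks, and 429 and 1737 CPM at 1 week. Its log2 fold change was -1.92 (SE 0.09, adjusted p = 8.0e-05 by edgeR). It was found in 37.0% of members against 60.3% of remaining macrophages at 12 weeks and in 33.6% against 58.8% at 1 week. Hspa1b, a nearly identical copy whose reads may be split with Hspa1a, had 868 and 3111 CPM at 12 weeks, members first, and 393 and 1427 CPM at 1 week. Dnajb1, an Hsp40 co-chaperone, had 168 and 374 CPM at 12 weeks, members first, and 79.3 and 187 CPM at 1 week. Bag3, an Hsp70 partner in protein clearance, and Hsph1, an Hsp110 chaperone, had log2 fold changes of -1.17 and -1.08. Of 14 chaperone genes tested 8 were called lower (57.1%) and none higher, with a median log2 fold change of -0.60, and 11 were called lower at equal depth. Over all genes 0.398% were called lower at full depth and 1.35% at equal depth.

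Immediate early genes, which are transcribed within minutes of a stimulus and also during tissue dissociation, fell alongside. Jun, a subunit of AP-1, had 76.7 CPM in members and 287 CPM in remaining macrophages at 12 weeks, and 105 and 269.98 CPM at 1 week (log2 fold change -1.62, SE 0.17; edgeR, adjusted p = 0.0069). Egr1, a zinc finger transcription factor, had 76.7 and 291 CPM at 12 weeks, members first, and 76.2 and 185 CPM at 1 week. Fosb had 30.2 and 129 CPM at 12 weeks, in the same order, and 40.0 and 104 CPM at 1 week. The members of both libraries stood below the remaining macrophages of both libraries for each of these 3 genes.

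Fos, the AP-1 partner required for osteoclast formation in mice, had 151 CPM in members and 327 CPM in remaining macrophages at 12 weeks, and 98.9 and 245 CPM at 1 week (log2 fold change -1.21, SE 0.13; edgeR, adjusted p = 0.0069). Nr4a1, a nuclear receptor counted among both immediate early and lineage genes, had 54.7 and 137 CPM at 12 weeks, members first, and 40.8 and 81.3 CPM at 1 week. Of 18 immediate early genes tested, 8 were called lower (44.4%), among them also Atf3, Btg2 and Jund, and 1 higher, Dusp2, a phosphatase of MAP kinases. The list's median log2 fold change was -0.62. Over all genes tested 0.398% were called lower and 0.378% higher. Vegfa, the vascular growth factor, was also lower, with 54.7 and 106 CPM at 12 weeks, members first, and 26.4 and 52.4 CPM at 1 week (log2 fold change -0.98 ± 0.16 SE; edgeR, adjusted p = 0.047). It lost its call when cells were chosen at equal depth (edgeR, adjusted p = 0.196), with stricter cell filters (0.072) and with DESeq2 size factors (0.064). Whether dissociation or sorting had a part in the lower chaperone and immediate early levels was not tested.

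Among called genes of at least 10 CPM, the 10 lowest fold changes belonged to transcripts of other cell types, and the UMIs of Igkc, Hbb-bs and Iapp lay mostly in very few barcodes. Genes that were not called reached log2 fold changes down to -7.93. Igkc, the immunoglobulin kappa constant region, had 0.816 CPM in members and 15.8 CPM in remaining macrophages at 12 weeks, and 5.28 and 523 CPM at 1 week, but 97.2% of the remaining macrophages' Igkc UMIs at 1 week lay in 5 barcodes. Hbb-bs, a beta-globin whose reads may be split with Hbb-bt, had 3.26 and 102 CPM at 12 weeks, members first, and 0 and 13.7 CPM at 1 week, where all 138 UMIs of the remaining macrophages lay in 1 barcode. Iapp, the islet hormone amylin, had 75.1 and 394 CPM at 12 weeks, members first, and 199 and 987 CPM at 1 week, with 78.4% and 83.8% of the remaining macrophages' UMIs in 5 barcodes of each library. An Iapp UMI was found in 34.6% of members against 32.0% of remaining macrophages at 12 weeks, and in 36.8% against 33.6% at 1 week. For Iapp the summed levels differed while the shares of cells with a UMI were similar. Without mixed droplets neither Igkc (log2 fold change -0.58; edgeR, adjusted p = 0.875) nor Hbb-bs (-0.78; edgeR, adjusted p = 0.835) was called.

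Ins2, the main mouse insulin gene and named here after its values were seen, showed the same pattern. It was called lower with a log2 fold change of -2.24 (SE 0.07, adjusted p = 1.1e-05 by edgeR), and it was detected in 95.1% of members against 95.3% of remaining macrophages at 12 weeks and in 94.4% against 95.3% at 1 week. Of the remaining macrophages' Ins2 UMIs, 74.0% at 12 weeks and 84.3% at 1 week lay in 5 barcodes. Without the mixed droplets the log2 fold change of Ins2 was 0.23 (edgeR, adjusted p = 0.724). With at least 10 C1q UMIs it was -0.95 and not called (edgeR, adjusted p = 0.352). Unlike Iapp, Ins2 was still called lower at equal depth (log2 fold change -0.54; edgeR, adjusted p = 3.0e-05). With cells also chosen at equal depth its log2 fold change was -0.48 (edgeR, adjusted p = 0.0037). The 12 endocrine markers summed to 1473 CPM in members and 6334 CPM in remaining macrophages at 12 weeks, and to 4241 and 21966 CPM at 1 week. Per cell the median was 997 CPM in members against 925 CPM in remaining macrophages at 12 weeks and 743 against 938 CPM at 1 week. Ppy, Ttr, Pcsk2, Sst, Chga, Scg2 and Resp18 were called lower too. Their UMIs in remaining macrophages were also concentrated. At 1 week 5 barcodes held 97.4% for Sst, 96.7% for Ppy, and between 83.2% (Chga) and 93.2% (Ttr) for the others. At 12 weeks 5 barcodes held between 45.1% (Ppy) and 82.3% (Pcsk2), with 76.6% for Sst. At equal depth Ttr, Pcsk2, Chga, Scg2 and Iapp were not called, with edgeR adjusted p of 0.064, 0.839, 0.802, 0.968 and 0.247 in that order, and Resp18 was too low to be tested.

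Gene levels were also followed along the share of the 4 choosing genes when macrophages were placed in those with no UMI of the 4, in 4 equal bins of the others below the threshold, and in members. Tnfaip2, a gene induced by tumour necrosis factor and named here after its values were seen, had 331, 461, 546, 655, 796 and 1059 CPM in these 6 bins at 12 weeks. At 1 week it had 263, 377, 463, 539, 651 and 909.6 CPM, so it was higher in every next bin of both libraries. Hspa1a ran the other way, with 3501, 3212, 2908, 2320.2, 1868 and 828 CPM at 12 weeks and 2489, 1793, 1624, 1525, 1101 and 429 CPM at 1 week. Of the 11 genes followed besides Acp5, these 2 were the only ones that changed in 1 direction at every step of both libraries. Il1rn had 107, 176, 138, 179, 278 and 369.7 CPM at 12 weeks, and Jun had 352, 239, 284, 258, 224 and 76.7 CPM. Ins2 had 1364, 18792, 1367, 1371, 1203 and 972 CPM at 12 weeks. At 1 week it had 33175, 26406, 1588, 2265, 1821 and 2926 CPM. Ccl5 lay between 423 and 724 CPM in the 5 lower bins at 12 weeks and between 423 and 597 CPM at 1 week, and stood apart in members at 1697 and 1507 CPM. C1qa, one of the genes of the macrophage rule, was 3865 CPM in members and 2950 to 3329 CPM in the lower bins at 12 weeks, and 3909 and 3404 to 4061 CPM at 1 week. The lowest bin also holds cells of low depth in which a UMI of the 4 genes could be missed.

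**Figure D4:**
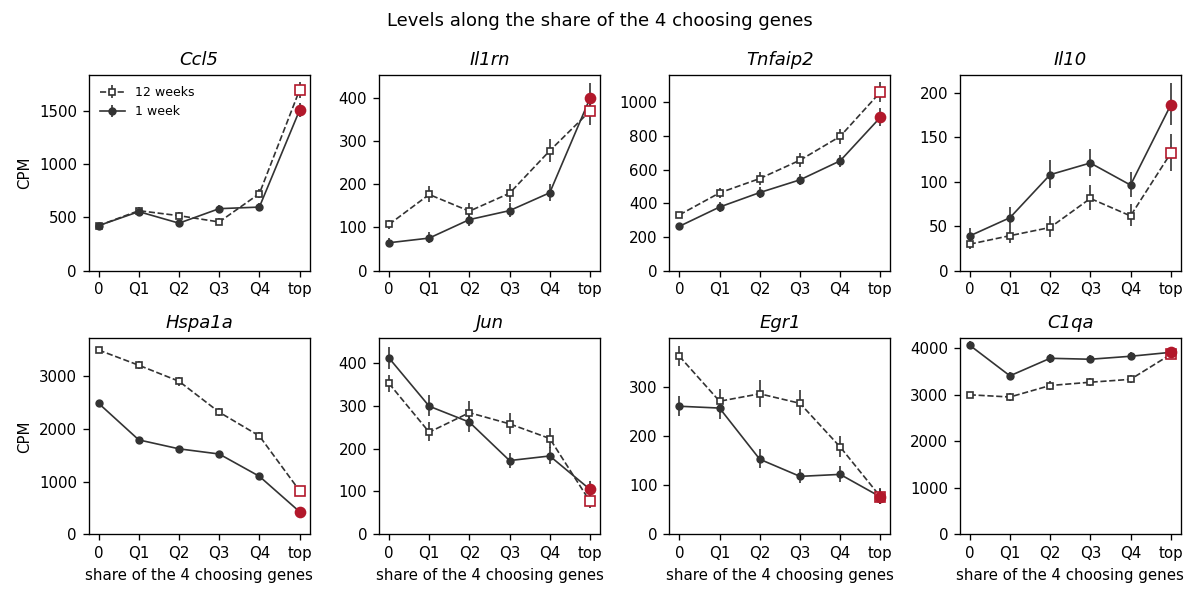
CPM (vertical, from 0) of 8 genes in macrophages with no UMI of the choosing genes (0), in 4 equal bins of the others below the threshold (Q1 to Q4) and in Acp5 Ocstamp-high macrophages (top, red), for the 12 weeks library (open squares, dashed) and the 1 week library (filled circles, solid). Bars are exact 95% Poisson intervals for counting error only. Tnfaip2 rises and Hspa1a falls at every step, while Ccl5 stands apart only in the top bin.

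Acp5 Ocstamp-high macrophages were set beside 7 other macrophage states. These were cut in the same way, at the 90th percentile of a share of marker genes, except cycling cells at 12 weeks. Of the members, 2.47% at 12 weeks and 2.40% at 1 week were among the heat shock-high cells, against 10.8% and 10.9% of the remaining macrophages. Among Hmox1-high cells, marked by the heme-degrading enzyme, were 1.23% of members against 11.0% of remaining macrophages at 12 weeks and 6.40% against 10.5% at 1 week. Hmox1 itself had 2219 and 3942 CPM at 12 weeks, members first, and 1467 and 1855 CPM at 1 week, and was not called at full depth (edgeR, adjusted p = 0.107) but was at equal depth (edgeR, adjusted p = 2.4e-06).

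Overlap ran higher with the Cxcl1 Il1a inflammatory cells, which held 18.5% of members against 9.05% of remaining macrophages at 12 weeks and 13.6% against 9.66% at 1 week. At 12 weeks fewer than 1 in 10 macrophages carried a UMI of the cycling genes, so all 138 that did were taken as cycling. They were 17.3% of members against 7.54% of remaining macrophages. At 1 week the 90th percentile gave 13.6% of members against 9.66% of remaining macrophages, on small counts in both libraries. The summed level of the same genes ran in opposite directions, with 62.8 CPM in members against 30.5 CPM in remaining macrophages at 12 weeks and 38.5 against 60.1 CPM at 1 week. Of 18 cell cycle genes tested, none was called and 5 were lower at an unadjusted p under 0.05, with a median log2 fold change of -0.52 (0.44 at 12 weeks and -1.69 at 1 week). Mki67, a marker of cells in cycle, was the only one with a positive fold change, at 47.3 and 19.4 CPM at 12 weeks, members first, and 35.5 and 24.5 CPM at 1 week (edgeR, adjusted p = 0.131). Top2a, the topoisomerase of dividing cells, had 10.6 and 5.78 CPM at 12 weeks, in the same order, and 1.51 and 18.4 CPM at 1 week.

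Interferon-responding cells held 13% of members against 9.67% at 12 weeks and 16.8% against 9.30% at 1 week. Of 15 interferon response genes none was called at full depth, and at equal depth 1 of 14 was called higher. Spic Slc40a1 iron-handling cells held 11.1% of members against 9.88% at 12 weeks and 14.4% against 9.57% at 1 week. Cx3cr1 Cxcr4 Csf2rb cells held 13.6% of members against 9.60% at 12 weeks but 6.40% against 10.5% at 1 week. These shares are descriptions and were not tested.

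Of the other lists of macrophage function, none of the 21 NRF2 target genes, 20 glutathione, thioredoxin and peroxiredoxin genes, 14 iron and heme genes, 10 MHC class II genes, 15 glycolysis genes or 19 respiratory chain genes tested was called at full depth. Their median log2 fold changes lay between 0.03 for iron and heme genes and 0.12 for MHC class II genes. At equal depth 2 of 15 glycolysis genes, 1 of 9 MHC class II genes and 1 of 21 NRF2 targets were called higher. Called lower there were 1 of 21 NRF2 targets and 1 of 13 iron and heme genes. Of the 31 lists in all, 22 held no gene called at full depth. Lipid-associated macrophage genes had 1 called of 23, Gpnmb, and lineage transcription factors 1 of 21, Nr4a1, with a list median of -0.38. Of these 21 genes, 11 were lower and 5 higher at an unadjusted p under 0.05 by edgeR, beside 561 and 491 of all 9788. At equal depth 6 of 20 were called lower and 2 higher, beside 99 and 105 of all 7315 genes tested.

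Between the time labels, each with 1 library and so without a test, the choosing genes were lower at 12 weeks over all macrophages. Acp5 had 207 CPM at 12 weeks (exact 95% Poisson interval 199 to 215) and 284 CPM at 1 week (274 to 294). Ocstamp had 12.4 CPM (10.5 to 14.6) and 25.5 CPM (22.7 to 28.6), Fam20c 28.1 CPM (25.1 to 31.3) and 42.9 CPM (39.2 to 46.8), and Gpr84 57.5 CPM (53.2 to 62.1) and 89.7 CPM (84.3 to 95.4), each with 12 weeks first. By the threshold of the 1 week library, 101 of 1620 macrophages at 12 weeks would be members (6.23%, exact 95% binomial interval 5.11% to 7.52%). The 125 of 1243 at 1 week (10.1%) were fixed by the rule, so no interval is given for them. At 3000 UMIs per cell Acp5 had 197 CPM at 12 weeks and 258 CPM at 1 week. The intervals cover counting error only, and time label, mouse pool and library cannot be told apart.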

How the data were processed

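The deposited matrices hold whole UMI counts, not normalized, which the authors made with Cell Ranger on mm10 per the submitters' processing notes, version 3.1.0 per the file headers. The labels do not say how barcodes were called as cells. The members, gene lists and named genes were chosen with earlier results of these data known. No doublet caller was run, and mixed droplets were handled as an alternative. UMIs were summed over members and over remaining macrophages per library, giving 4 profiles. They were tested with edgeR 4.0.16 in R 4.3.3 (TMM, filterByExpr, quasi-likelihood, library as a block, 1 residual degree of freedom, Benjamini-Hochberg adjustment at 0.05), leaving out the 4 choosing genes. Members and remaining macrophages of 1 library come from the same mice, so the library pairs them. Nothing says more of how the pools relate, and p-values rest only on the spread between these libraries, with edgeR sharing information across genes. CPM is UMIs per 1000000 UMIs of the class. The tests were tried on simulated data.

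Named were the 4 choosing genes, the 14 highest and 10 lowest called genes of at least 10 CPM, up to 4 called genes per list, and fixed osteoclast and macrophage state genes, among them Fam20b (10.6 CPM in members and 7.05 CPM in remaining macrophages at 12 weeks, 9.06 and 7.93 CPM at 1 week). Ankh and Clec7a were not matched by symbol, and Aldoa and Atp5o were paired with more than 1 gene ID and left out. Alternatives were DESeq2 1.42.0 as test and as size factors, no low-count filter, no block, thinning to 3000 UMIs before or after choosing, the 80th and 95th percentile, stricter cell filters (1000 genes, 2000 UMIs, 5% mitochondrial), at least 10 C1q UMIs, no mixed droplets, and 1 added after the data were seen, the total without hormone and enzyme UMIs. The result for 1 gene is not reported here.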

Additional observations from a re-analysis of the deposited data

Results flagged for a closer look

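Among the named genes with at least 5 UMIs in each of the 4 profiles, 6 had opposite directions in the 2 libraries, none of them called in the test over both and none with a test of the difference between libraries. Spp1, osteopontin, had a log2 fold change of -0.15 at 12 weeks and 0.54 at 1 week. The interferon-induced genes Ifit2 (-0.12 at 12 weeks, 0.47 at 1 week) and Rsad2 (-0.33 at 12 weeks, 0.60 at 1 week) went the same way. The reverse held for Cx3cr1, the fractalkine receptor, at 0.52 and -0.64, for the chemokine receptor Cxcr4, at 0.018 and -0.33, and for the iron exporter Slc40a1, at 0.038 and -0.10, each with 12 weeks first.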

How the results depend on the processing

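The counts of called genes moved far more than the directions. Against 37 higher and 39 lower, they were 71 and 43 with DESeq2, 27 and 29 with DESeq2 size factors, 151 and 265 with no filter on low counts, 105 and 99 at equal depth, 85 and 53 when cells were also chosen at equal depth, 257 and 293 at the 80th percentile, 72 and 66 at the 95th, 19 and 23 with stricter cell filters, 87 and 75 with at least 10 C1q UMIs, 78 and 54 without mixed droplets, and 90 and 87 with hormone and enzyme UMIs out of the total. With no replicate block 0 and 0 genes were called by edgeR, with 317 and 379 at an unadjusted p under 0.05, and the choosing genes measured by the other 3 lost their call (log2 fold changes 0.92 for Acp5, 1.45 for Ocstamp, 0.63 for Fam20c and 0.91 for Gpr84, edgeR adjusted p of 0.592, 0.590, 0.771 and 0.636). A single library gave values with no test: 0.86 to 0.94 for Acp5, 1.30 to 1.71 for Ocstamp, 0.60 to 0.61 for Fam20c and 0.83 to 1.01 for Gpr84. Fam20c was called with cells chosen at equal depth (1.01).

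The 37 higher genes kept their sign under every alternative in which they were tested, Gpnmb being too low at equal depth, with equal depth choice and without mixed droplets. Of the 39 lower genes, 3 changed sign with equal depth choice, 3 without mixed droplets (Iapp, Ins1 and Ins2) and 1 at the 80th percentile. Of the named called genes, 11 of 19 higher and 10 of 21 lower lost their call under at least 1 alternative that kept the library block. Reversed log2 fold changes were Hbb-bs 5.96 with equal depth choice and 3.24 at the 80th percentile, Scg2 0.26 with equal depth choice, Iapp 0.25 without mixed droplets, Ifit2 -0.30 at the 95th percentile and -0.038 with at least 10 C1q UMIs, Rsad2 -0.10 at equal depth, -0.13 with equal depth choice and -0.62 at the 95th percentile, Slc40a1 0.47 with equal depth choice and 0.059 at the 80th percentile, Cx3cr1 0.18 with stricter cell filters, and Cxcr4 0.058 at the 95th percentile and 0.0086 without mixed droplets. In the main choice, 1 barcode among the remaining macrophages held 996 of their 1047 Hbb-bs UMIs at 12 weeks. The causes of these reversals were not tested. Depth limits Ocstamp and Fam20c, which most members carried in no UMI, and with 2 libraries a time effect cannot be told from a pool effect.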

Other observations

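Further genes called higher in Acp5 Ocstamp-high macrophages lay outside the lists, and those given here were picked after their values were seen. Bcl2a1d, an anti-apoptotic relative of Bcl2, had 975 CPM in members and 519 CPM in remaining macrophages at 12 weeks, and 1013 and 578 CPM at 1 week (log2 fold change 0.86; edgeR, adjusted p = 0.0083). Bcl2a1a and Bcl2a1b, near-identical copies among which reads may be split, were called higher as well. Traf1 and Tnip1, which act in tumour necrosis factor and NF-kappa B signalling, had log2 fold changes of 0.90 and 0.92. Acod1, which makes the antibacterial metabolite itaconate, had 89.0 and 37.4 CPM at 12 weeks, members first, and 55.1 and 26.4 CPM at 1 week. Mmp13, a collagenase, had 413 and 230.3 CPM at 12 weeks, members first, and 360.1 and 208 CPM at 1 week (log2 fold change 0.82; edgeR, adjusted p = 0.020), in 37.7% of members against 26.8% of remaining macrophages at 12 weeks and 42.4% against 30.0% at 1 week.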
